A study of Mus musculus with 230 samples.

Results

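The potassium channel genes of sensory neurons were taken as every row of the count table whose gene name begins with Kcn, followed by lower-case letters and a digit, leaving out names that end in os or contain ot. This gave 95 of 53278 genes. They comprised 30 pore-forming subunits of voltage-gated channels (Kcna, Kcnb, Kcnc, Kcnd, Kcnh and Kcnq), 10 silent modifier subunits (Kcnf, Kcng, Kcns and Kcnv), 8 calcium-, sodium- or pH-activated channels (Kcnma, Kcnn, Kcnt and Kcnu), 15 inward rectifiers (Kcnj), 14 two-pore domain channels (Kcnk) and 16 auxiliary subunits (Kcnab, Kcne, Kcnip and Kcnmb). The remaining 2 rows, Kcnmb4os1 and Kcnmb4os2, are antisense transcripts that the rule left in because their names end in a digit, so 93 members are channel genes proper.

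Potassium channels let potassium leave the cell and set the resting potential, the shape of the action potential and the firing rate of a neuron. In sensory neurons of the dorsal root ganglion (DRG), which carry touch, position, temperature and pain from the body to the spinal cord, lower potassium channel expression after nerve injury is a known feature of hyperexcitability. Voltage-gated alpha subunits form the pore, silent modifiers assemble with Kcnb subunits and form no channel alone, two-pore channels carry background current, and auxiliary subunits alter trafficking and gating.

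RNA was measured in hand-picked neurons from dissociated L4 and L5 ganglia of C57BL/6 X CAST/Ei crosses, either intact or after sciatic nerve injury. The 6 low-input groups, each of 3 libraries that pool an unstated number of neurons, were intact and injured neurons at 1, 8 and 12 months of age. The single neurons were 18 intact and 21 injured cells at 1 month, and 8 intact and 22 injured cells at 1 year. The labels name no animal, give no interval after surgery and do not say whether intact neurons came from other mice, so p-values measure only the spread between these libraries.

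The low-input libraries held between 7531967 and 19443627 counts in genes, and a single feature, CT010467.1, took 29.4 to 93.8% of them. Without that feature 770328 to 11587094 counts remained. One library, intact 12 months replicate 2, stood apart, with the 93.8% share and with 40.5% of its other counts from mitochondrial genes. Some calls and counts of calls, and marker sums that it set, are given with and without it below. Not every call that began without it is named. All 6 libraries at 1 month and all 6 at 8 months had Y-linked counts, while 0 of 6 at 12 months did and 5 of these 6 had Xist counts, so in comparisons with 12 months age and sex cannot be told apart. The 8 general neuron markers summed to 3619 to 7941 CPM (counts scaled to the library size after TMM adjustment) in every library, immune markers to at most 9.58 CPM, and satellite glia markers to 46.7 to 2104 CPM. In pooled neurons, fewer cells of a type and less RNA per cell cannot be told apart.

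The most abundant potassium channel transcripts were auxiliary subunits and pore-forming subunits of the Kcna and Kcnd families. On a scale that allows genes to be compared, CPM per kb of exon, Kcnab2 led with a level of 70.3 ± 27.6 (SD, n = 18). Its product is a cytoplasmic beta subunit that binds Kcna channels. Kcna1, a low-threshold channel subunit of myelinated axons, followed at 29.6 ± 13.99, and Kcnd1, a subunit of fast inactivating A-type channels, was at 23.6 ± 9.60. The 3 Kcnip genes next in order encode calcium-binding partners of the Kcnd channels. Kcnip3 was at 23.3 ± 17.6, Kcnip2 at 18.9 ± 22.3 and Kcnip4 at 14.6 ± 12.8 CPM per kb. Kcnk1 at 12.3 ± 10.1, Kcna2 at 9.80 ± 4.75, Kcns3 at 9.54 ± 6.06 and Kcnab1 at 8.77 ± 7.29 completed the first 10. Only Kcnab2 lay above its neighbour by more than 1 SD, and the order of the others is not resolved by the spread between libraries.

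Summed by class, auxiliary subunits made up the largest level in intact neurons, 183 ± 38.6 CPM per kb (n = 9), and 110 ± 33.3 in injured neurons (n = 9). Voltage-gated alpha subunits summed to 141 ± 55.6 in intact and 116 ± 21.6 in injured neurons. Silent modifiers came to 33.3 ± 10.8 and 21.5 ± 8.65, and two-pore channels to 32.7 ± 19.9 and 27.2 ± 7.09. The calcium-, sodium- or pH-activated channels summed to 13.6 ± 11.4 and 9.02 ± 5.59, and inward rectifiers were the lowest class of channels at 9.15 ± 5.57 and 6.23 ± 1.44. The range over libraries of the auxiliary sum was 121 to 229 in intact and 78.8 to 187 in injured neurons, so the groups overlapped, and no test was made of these sums.

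Of the 95 members, 68 had enough counts for the test across genes, and 27 did not. The filter kept 24 of 30 voltage-gated alpha subunits, 9 of 10 silent modifiers, 7 of 8 calcium-, sodium- or pH-activated channels, 6 of 15 inward rectifiers, 9 of 14 two-pore channels, 12 of 16 auxiliary subunits and 1 of 2 antisense rows. Kcnk15, Kcna7, Kcnj1 and Kcne1 had no count in any of the 18 low-input libraries.

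Averaged over the 3 ages with equal weights, 4 of the 68 tested members (5.88%) changed after injury at an adjusted p below 0.05, against 6.18% of all 14212 genes tested. Kcnq3 and Kcnk16 rose, and Kcng2 and Kcnh7 fell. The share called among all genes was 5.11% higher and 1.07% lower. The share of potassium channel genes called was thus near the background. At an unadjusted p below 0.05 there were 20 members (29.4%), 8 higher and 12 lower, against 20.3% of all genes. Without the library that stood apart 6 of 71 members tested (8.45%) were called, 3 in each direction, against 9.92% of all genes. Their median log2 change was -0.12, beside 0.03 over all genes tested, with 30 members above 0 and 38 below.

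Kcnq3, a subunit of the slow M-type channel that restrains repetitive firing, lies on chromosome 15 at 65986387 to 66286642 (GRCm38, minus strand). In intact neurons its level was 23.9, 20.3 and 19.8 CPM at 1 month, 0, 4.22 and 3.04 at 8 months, then 22.6, 30.7 and 17.4 at 12 months. In injured neurons it was 55.7, 35.8 and 31.8 CPM at 1 month, 6.38, 44.6 and 43.4 at 8 months, then 55.3, 50.1 and 42.4 at 12 months. Every injured library lay above every intact library of its age, and the intact 8-month libraries were the lowest of all. The averaged log2 change was 1.92 ± 0.44 (SE; edgeR, Benjamini-Hochberg adjusted p = 0.0138). It was the only member whose groups did not overlap in the same direction at all 3 ages, a pattern that 1.83% of all genes showed upwards and 0.12% downwards.

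Kcng2 encodes a silent modifier that assembles with Kcnb subunits. Its level in intact neurons was 1.27, 0.99 and 1.67 CPM at 1 month, 10.8, 22.1 and 3.04 at 8 months, then 2.996, 3.61 and 3.04 at 12 months. In injured neurons it was 0.48, 1.03 and 0.44 CPM at 1 month, 1.02, 1.11 and 1.57 at 8 months, then 0.57, 1.70 and 0.51 at 12 months. The groups were separate at 8 and 12 months and overlapped at 1 month, and the highest values came from intact 8-month libraries. The 3.61 CPM rest on 2 counts of the library that stood apart. Kcng2 fell by 2.00 ± 0.40 on the log2 scale (edgeR, adjusted p = 0.00605), although with scaling to the ERCC spike-ins its change was 0.54. That scaling moved the median change of all genes to 2.90, and relative to this median Kcng2 was at -2.36.

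Kcnh7, a subunit of the slowly deactivating Erg-type channels, lies on chromosome 2 at 62693414 to 63184287 (minus strand). Intact neurons had 80.9, 98.7 and 85.6 CPM at 1 month, 29.5, 46.8 and 37.3 at 8 months, then 76.6, 135 and 62.4 at 12 months. Injured neurons had 29.2, 51.7 and 40.8 CPM at 1 month, 31.2, 38.5 and 41.9 at 8 months, then 40.7, 32.2 and 58.01 at 12 months. The groups were separate at 1 and 12 months but overlapped at 8 months, where intact neurons were as low as injured ones. Kcnh7 fell by 0.73 ± 0.19 on the log2 scale (edgeR, adjusted p = 0.0262), whereas with spike-in scaling its change was 2.18, or -0.71 relative to the median of all genes. Within its exons, 4.57% of bases also belong to Gca, and reads there were not assigned.

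Kcnk16, an alkaline-activated two-pore channel best known from pancreatic islets, lies on chromosome 14 at 20261376 to 20269199 (minus strand). In intact neurons its level was 0, 0.14 and 0.29 CPM at 1 month, 0, 0 and 0.90 at 8 months, then 0.43, 0 and 1.09 at 12 months. In injured neurons it was 3.63, 1.28 and 1.59 CPM at 1 month, 1.11, 0.76 and 1.30 at 8 months, then 2.57, 2.28 and 3.42 at 12 months. It was detected in every injured library and overlapped intact libraries at 8 months alone. Kcnk16 rose by 2.54 ± 0.68 on the log2 scale (edgeR, adjusted p = 0.0338), at levels that make the fitted fold depend on few counts.

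**Figure D1:**
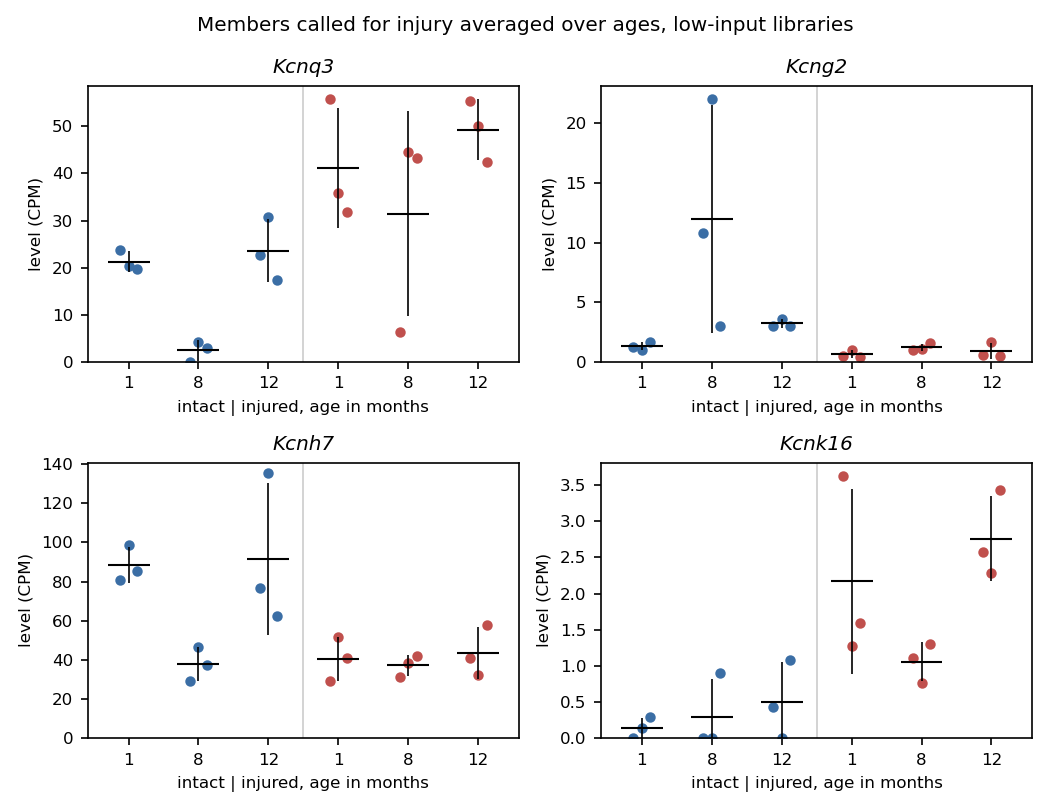
Levels in CPM (linear axis) of the 4 members called for injury averaged over ages, in each of the 18 low-input libraries. Dots are libraries, intact in blue and injured in red, at 1, 8 and 12 months; horizontal lines are means and vertical lines 1 SD of 3 libraries, cut at 0. Kcnq3 dots of injured neurons lie above those of intact neurons of the same age, and Kcng2 is highest in intact neurons at 8 months.

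The calls in this averaged comparison were sensitive to the model. Adding a covariate for the dominant feature's share left 0 of the 4 calls, and when single libraries were left out in turn the call was lost for Kcnh7 in 6 and for Kcnk16 in 9 of 18 refits, and for Kcnq3 and Kcng2 in 0. Kcnh7 lost it without the intact 1-month replicate 2, the injured 1-month replicates 1 and 3, the injured 12-month replicates 1 and 2 or the injured 8-month replicate 2. Kcnk16 lost it without the intact 1-month replicate 2, the intact 12-month replicate 1, the injured 1-month replicates 1 and 3, any injured 12-month library or the injured 8-month replicates 2 and 3, and its change reached 4.24 in these refits.

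RefSeq promoters (250 bases before to 50 after a start, GRCm38.p6) were matched for 69 of the 95 members, and those of Kcnh7 and Kcnk16 are shown because these called members differ in CG dinucleotides, the sites where DNA can be methylated. Capitals mark each CG.
Kcnh7: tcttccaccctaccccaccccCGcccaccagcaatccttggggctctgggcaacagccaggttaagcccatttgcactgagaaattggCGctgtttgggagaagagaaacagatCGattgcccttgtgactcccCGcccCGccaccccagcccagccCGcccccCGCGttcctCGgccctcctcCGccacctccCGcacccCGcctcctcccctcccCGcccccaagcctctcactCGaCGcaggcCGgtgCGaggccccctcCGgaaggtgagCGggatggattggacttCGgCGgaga
Kcnk16: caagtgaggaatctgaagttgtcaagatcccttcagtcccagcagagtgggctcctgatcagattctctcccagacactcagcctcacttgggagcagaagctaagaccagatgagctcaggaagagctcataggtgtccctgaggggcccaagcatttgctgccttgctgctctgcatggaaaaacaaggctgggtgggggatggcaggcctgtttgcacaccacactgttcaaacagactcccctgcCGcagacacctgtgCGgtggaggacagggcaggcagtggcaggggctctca
The Kcnh7 window (chr2:63184238-63184537, minus strand) holds 21 CG dinucleotides and the Kcnk16 window (chr14:20269220-20269519, minus strand) holds 2. The median over the 94 windows of members was 9, beside 7 over all 32851 windows. The AP-1 motif TGANTCA, searched on both strands, was in 4.26% of member windows and 7.81% of all, the E-box CACGTG in 7.45% and 7.15%, and the CRE TGACGTCA in 0 member windows and 1.79% of all. Methylation samples of the series were not analysed here.

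None of the other members passed the test in the averaged comparison. Among the auxiliary subunits, 5 of 12 tested were above 0 and 7 below, with 0 called and a median log2 change of -0.57. Kcnmb1, the beta subunit that raises the calcium sensitivity of the large-conductance channel, ranged from 0 to 96.3 CPM with a median of 23.7 in intact neurons and from 1.82 to 26.2 with a median of 7.85 in injured neurons. The groups overlapped, and the log2 change was -1.98 ± 0.63 (edgeR, adjusted p = 0.0781). Without the intact 12-month replicate 2 Kcnmb1 passed the test, at -2.13 (edgeR, adjusted p = 0.0426). Kcnip3, a calcium sensor that binds Kcnd channels, ranged from 21.4 to 273 CPM with a median of 74.2 in intact neurons and from 24.5 to 80.5 with a median of 56.3 in injured neurons. Its log2 change was -1.07 ± 0.36 (edgeR, adjusted p = 0.0867). The most abundant member, Kcnab2, ranged from 262 to 824 CPM with a median of 393 in intact and from 236 to 418 with a median of 305 in injured neurons. Its log2 change was -0.56 ± 0.22 (edgeR, adjusted p = 0.139), and over all ages the groups overlapped. Within ages, Kcnip3 and Kcnab2 were separate at 12 months alone, with injured neurons lower. Of the 68 tested members, 6 lay higher and 5 lower in injured neurons without overlap at 1 month. At 8 months 3 lay higher and 2 lower, and at 12 months 5 and 6. The share over all genes was not computed for single ages, so separations at 1 age, here and below, are descriptions only. With spike-in scaling the changes of Kcnmb1, Kcnip3 and Kcnab2 were 0.38, 2.28 and 2.60, and relative to the median of all genes under that scaling -2.51, -0.61 and -0.30.

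In the voltage-gated class 10 of 24 tested members were above 0 and 14 below, with a median of -0.17. Kcnb2, a delayed rectifier, ranged from 43.9 to 152 CPM with a median of 127 in intact neurons and from 52.96 to 104 with a median of 66.3 in injured neurons. Over all ages the groups overlapped, but at 8 months alone every injured library lay below every intact one. The log2 change of Kcnb2 was -0.53 ± 0.20 (edgeR, adjusted p = 0.124). Kcna2, a Kcna subunit found beside nodes of Ranvier, had a median of 138 CPM (23.3 to 215) in intact and 94.2 CPM (29.97 to 165) in injured neurons, a log2 change of -0.40 ± 0.33 (edgeR, adjusted p = 0.537). Kcna1 had a median of 118 CPM (39.7 to 334) and 145 CPM (88.3 to 251), a log2 change of 0.13 ± 0.29 (edgeR, adjusted p = 0.857; 0.45 without the intact 12-month replicate 2). For both, intact and injured libraries overlapped, and their changes did not pass the test in either direction. Kcnd1 was at -0.19 ± 0.22. Under spike-in scaling the changes of Kcnb2, Kcna2 and Kcnd1 were 2.39, 2.60 and 2.72, or -0.51, -0.30 and -0.17 relative to the median of all genes.

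Of the 9 silent modifiers tested, 4 were above 0 and 5 below, with a median of -0.74 and Kcng2 the 1 called. Kcns1, a modifier of Kcnb channels in large sensory neurons, had a median of 24.7 CPM (12.3 to 49.6) in intact and 13.2 CPM (4.44 to 37.1) in injured neurons, a log2 change of -0.86 ± 0.30 (edgeR, adjusted p = 0.101; 1.73 with spike-in scaling, -1.16 relative to the median). The Kcns1 groups were separate at 12 months alone, with injured neurons lower. Kcnf1 was at -2.10 ± 0.99 and Kcng4 at 1.76 ± 0.75, both with wide overlap. Of the 9 two-pore channels tested, 5 were above 0 and 4 below, with a median of 0.13. Kcnk18, a background channel of nociceptors, had a median of 8.70 CPM (0 to 21.02) in intact and 3.78 CPM (0.35 to 6.14) in injured neurons, a log2 change of -1.61 ± 0.66 (edgeR, adjusted p = 0.176; 1.40 with spike-in scaling, -1.50 relative to the median). The Kcnk18 groups were separate at 1 month alone, with injured neurons lower. The 7 calcium-, sodium- or pH-activated channels had a median of -0.12, and 0 were called. The sodium-activated Kcnt1, the most abundant of them per kb, had a median of 27.4 CPM (16.5 to 187) in intact and 19.6 CPM (12.4 to 117) in injured neurons. Kcnma1, the pore of the large-conductance calcium-activated channel, had 16.6 CPM (11.7 to 38.5) and 21.2 CPM (19.1 to 30.3), and the groups overlapped for both genes.

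Several of these genes belong to a list of 17 channel genes known for setting sensory neuron excitability, of which 16 were tested. Averaged over ages, 5 had a change above 0 and 11 below, with a median log2 change of -0.51. Only Kcnq3, which lay above 0, was called, against 6.18% of all genes. With spike-in scaling Kcna2, Kcnb2, Kcns1 and Kcnk18 lay above 0 but, as given above, below the median of all genes.

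Of the 6 inward rectifiers tested 2 were above 0, with a median of -0.21 and 0 called. Kcnj12 had the highest level of the class per kb, with a median of 9.44 CPM (1.81 to 23.4) in intact and 7.77 CPM (5.15 to 11.04) in injured neurons. Kcnj10, the main inward rectifier of satellite glia, was at 0, 0.38 and 4.21 CPM in intact and 5.57, 8.78 and 8.48 CPM in injured neurons at 1 month, and the groups did not overlap there. At 8 months it was at 0, 0.86 and 0 in intact and 0.37, 3.61 and 4.51 CPM in injured neurons, and at 12 months at 0, 7.22 and 1.09 and at 0, 1.70 and 2.62 CPM. The 7.22 CPM rest on 4 counts of the library that stood apart. The averaged log2 change was 1.86 ± 1.04 (edgeR, adjusted p = 0.339), and 2.44 without that library (adjusted p = 0.170). All 8 satellite glia markers were tested, and 8 of 8 had an averaged change above 0, with 0 called by edgeR. Their summed level was 98.2 to 643 CPM in intact and 1341 to 2104 CPM in injured libraries at 1 month, 97.0 to 542 and 386 to 721 at 8 months, and 46.7 to 809 and 115 to 450 at 12 months. The 809 CPM belong to the library that stood apart, and without it the intact 12-month sums were 46.7 and 90.4 CPM, both below the injured ones. Up to 4 of the 8 were at 0 in an intact library and up to 1 in an injured one, and their part in the Kcnj10 values was not tested.

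**Figure D2:**
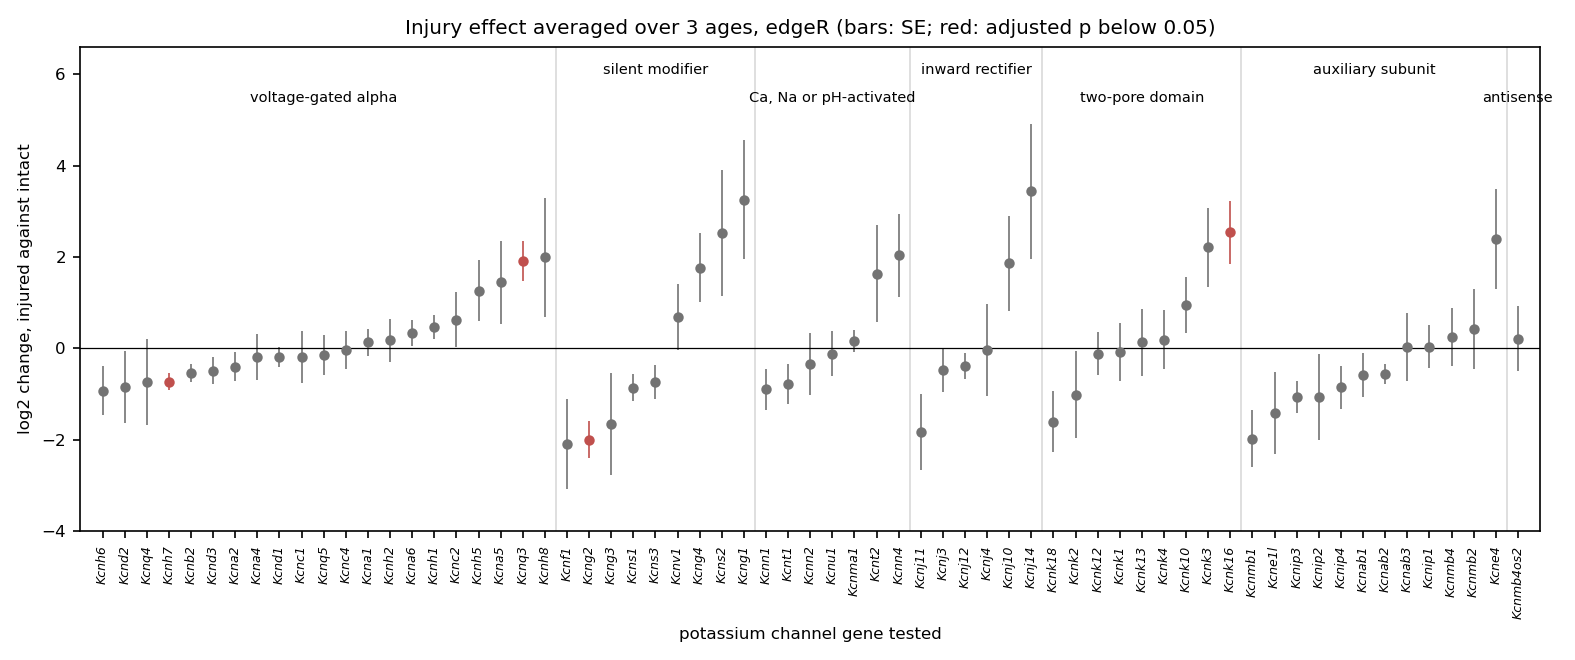
Log2 change after injury, averaged over the 3 ages, for 65 of the potassium channel genes tested with edgeR, ordered within each class; bars are 1 SE and red points have an adjusted p below 0.05. The 4 red points are Kcnh7 and Kcng2 below 0 and Kcnq3 and Kcnk16 above 0, and most other members span 0 or lie within a few SE of it.

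At single ages fewer members were called. At 1 month 0 of 68 members passed the edgeR test, against 0.232% of all genes, with 4 members (Kcnh7, Kcnd3, Kcnf1 and Kcnk16) and 4.5% of all genes at an unadjusted p below 0.05 and 1 member called by DESeq2 (Kcnk16). At 8 months 2 members (2.94%) were called, against 0.957% of all genes (0.915% higher, 0.0422% lower): Kcnq3 rose by 3.70 ± 0.82 (edgeR, adjusted p = 0.0414) and Kcng2 fell by 3.26 ± 0.71 on the log2 scale (edgeR, adjusted p = 0.0358). The Kcnq3 call at 8 months was kept only without replicate 1 of the intact 1-month, intact 8-month or injured 8-month group or replicate 3 of the intact 12-month group, and was lost in the other 14 of 18 refits (changes of 3.12 to 4.33), among them that without the library that stood apart (3.70, edgeR, adjusted p = 0.0504). The Kcng2 call was lost in 10 refits (changes of -3.72 to -2.47): without the intact 1-month replicate 2, the injured 1-month replicates 1 and 3, the injured 12-month replicates 1 and 3, the intact 8-month replicates 1 and 2 or any injured 8-month library.

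At 12 months 2 members (2.94%) were called, against 2.99% of all genes (2.19% higher, 0.802% lower), 1 in each direction. Without the library that stood apart 2 of 71 were called (2.82%, against 7.03% of all genes), both higher and 0 lower. Kcna6, a Kcna pore subunit on chromosome 6 at 126708329 to 126740674 (minus strand), was at 4.79, 1.81 and 3.48 CPM in intact and 23.7, 15.3 and 25.9 CPM in injured neurons. The groups did not overlap, and Kcna6 rose by 2.48 ± 0.55 (edgeR, adjusted p = 0.0239). The 1.81 CPM rest on 1 count of the library that stood apart. The Kcna6 call was lost without the intact 12-month replicate 3 or any injured 12-month library. In the exons of Kcna6, 39.6% of bases are shared with Gm26673, and reads there were not counted for either gene.

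The injury effect was also compared between ages in an interaction test. Of the 68 members 0 were called by edgeR, as were 0 of all 14212 genes (0%), with 6 members and 8.17% of all genes at an unadjusted p below 0.05. Kcna6 had an unadjusted p of 0.000365 and an adjusted p of 0.229 with edgeR, and it was the 1 member that DESeq2 called, so whether its injury effect differed between ages depended on the tool.

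Among the intact low-input libraries, Kcna6 had the clearest difference between ages. Single cells, given below, were measured at 1 month and 1 year alone and did not show the difference between these ages to that extent. Kcna6 was at 53.4, 12.1 and 16.6 CPM at 1 month, 66.5, 50.4 and 29.5 at 8 months, then 4.79, 1.81 and 3.48 at 12 months, so each 12-month library lay below every younger one. Between 12 and 8 months Kcna6 fell by 3.65 ± 0.57 on the log2 scale (edgeR, adjusted p = 0.00395), a call kept in all 24 alternatives. Between 12 and 1 month it fell by 2.82 ± 0.55 (adjusted p = 0.0408), the 1 member of 68 called (1.47%) against 0.246% of all genes. That second call was lost in 13 of 18 refits without 1 library, all but those without the intact 1-month replicates 2 and 3, the intact 12-month replicate 1 and the intact 8-month replicates 1 and 3, with changes of -3.18 to -1.90, and -2.70 (edgeR, adjusted p = 0.0528) without the library that stood apart. Injured neurons had 16.6, 16.9 and 25.8 CPM at 1 month, 33.3, 17.7 and 20.5 at 8 months and the 15.3 to 25.9 CPM given above at 12 months, and these overlapped.

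The Kcna6 promoter window (chr6:126740625-126740924, minus strand, GRCm38.p6, RefSeq) is shown because this gene had the call kept in most settings. It holds 8 CG dinucleotides, in capitals.
Kcna6: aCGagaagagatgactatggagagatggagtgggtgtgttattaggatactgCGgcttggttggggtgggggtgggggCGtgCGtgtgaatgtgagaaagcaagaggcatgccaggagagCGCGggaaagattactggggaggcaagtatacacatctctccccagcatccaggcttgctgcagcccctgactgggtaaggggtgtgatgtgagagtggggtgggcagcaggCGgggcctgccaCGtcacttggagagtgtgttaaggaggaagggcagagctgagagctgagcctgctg

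Between intact 12 and 8 months 5 of 68 members (7.35%) were called, against 6.69% of all genes (2.77% higher, 3.92% lower). Beside Kcna6, 2 further members fell. Kcnc4, a high-threshold A-type subunit, was at 38.5, 55.4 and 68.7 CPM at 8 months and 11.6, 1.81 and 0.22 at 12 months, a fall by 3.28 ± 0.80 on the log2 scale (edgeR, adjusted p = 0.0253). Kcnk12, a two-pore domain subunit, was at 5.87, 96.2 and 34.1 CPM at 8 months and 4.02, 0 and 3.91 at 12 months, a fall by 3.72 ± 0.92 (adjusted p = 0.0259). In both genes the 12-month libraries lay below the 8-month ones without overlap. The 1.81 and 0.22 CPM of Kcnc4 rest on 1 count each, and the 0 of Kcnk12 is from the library that stood apart. Without the intact 8-month replicate 2 both calls were lost, and that of Kcnk12 also without the intact 12-month replicate 1 or 3, with changes of -6.95 to -2.65 and -4.23 to -2.56 over the refits.

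Kcnq3 and Kcnh7 rose between intact 8 and 12 months, by 3.23 ± 0.82 (edgeR, adjusted p = 0.0290) and by 1.25 ± 0.33 (adjusted p = 0.0325). With spike-in scaling, which moved the median of all genes to -2.17 here, they were at 0.36 and -1.45, or 2.53 and 0.72 relative to that median. Both were lowest in intact neurons at 8 months, as their values above show. Leaving out 1 library ended the Kcnq3 call for the intact 12-month replicate 1, and the Kcnh7 call for the intact 12-month replicate 2, the library that stood apart (0.88 without it, adjusted p = 0.0533), or any intact 8-month library. Between intact 8 and 1 month, Kcng2 was the 1 member called (1.47%) against 0.922% of all genes, a rise of 3.18 ± 0.70 (edgeR, adjusted p = 0.0390) that was lost in 12 of 18 refits without 1 library, all but those without any intact 12-month library, the injured 12-month replicate 2, the intact 8-month replicate 3 and the injured 8-month replicate 1. The intact 8-month group served in these age comparisons and in the 8-month injury comparison, so they are not independent of each other. Markers of neuron type varied within it: the 4 non-peptidergic markers summed to 41.3 to 1803 CPM in its 3 libraries, and the 5 large-fibre markers to 1522, 8173 and 400.5 CPM in the intact 12-month libraries, the highest being the library that stood apart. The 3 peptidergic markers summed to 2541, 829 and 476 CPM in intact libraries at 1 month and to 3290, 1185 and 220 CPM at 8 months. At 12 months they summed to 467, 166 and 356 CPM, the 166 CPM being from the library that stood apart. Between intact 8 and 12 months 1 of these 3 was called lower by edgeR, against 3.92% of all genes. The part of these marker types in the age differences was not tested.

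**Figure D3:**
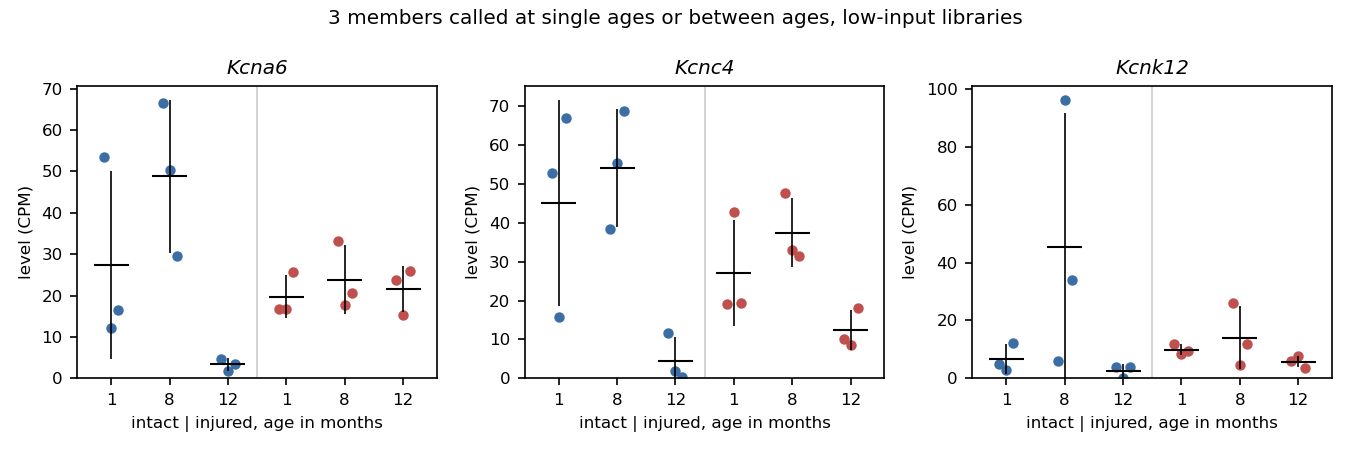
Levels in CPM (linear axis) of 3 further members called at a single age or between ages, in each low-input library; dots are libraries (intact blue, injured red), horizontal lines means and vertical lines 1 SD of 3 libraries, cut at 0. Kcna6 and Kcnc4 are lowest in intact neurons at 12 months, and the high Kcnk12 mean of intact neurons at 8 months comes mainly from 1 library at 96.2 CPM.

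In injured neurons no age difference was called among the members. For 8 against 1 month, 12 against 1 month and 12 against 8 months edgeR called 0 of 68 members each, against 0.225, 0.113 and 0.0633% of all genes. At an unadjusted p below 0.05 there were 7, 2 (Kcnj3 and Kcns1) and 5 members (Kcne4, Kcnc4, Kcnd2, Kcnn1 and Kcnd1) beside 4.99, 3.86 and 4.29% of all genes, and DESeq2 called 0 in each.

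Genes that act with potassium channels were followed from a separate list of 25 partner proteins, of which 21 were tested. Averaged over ages, 9 had a change above 0 and 12 below, with a median of -0.04. Only Dlg4, a scaffold that clusters Kcna channels, passed the test, against 6.18% of all genes. It was at 40.3, 13.8 and 21.9 CPM in intact and 15.3, 15.8 and 13.3 CPM in injured neurons at 1 month. The 8-month libraries had 27.9, 24 and 17.98 CPM (intact) and 17.1, 15.3 and 19.3 CPM (injured), and the 12-month libraries 16.2, 36.1 and 36.5 CPM (intact) and 15.3, 13.7 and 14.3 CPM (injured). It fell by 0.74 ± 0.21 on the log2 scale (edgeR, adjusted p = 0.0482; 2.40 with spike-in scaling, -0.49 relative to the median), with groups separate at 12 months alone. The call was lost in 14 of 18 refits, all but those without the intact 1-month replicate 2, the intact 12-month replicates 1 and 2 and the intact 8-month replicate 3. Of 10 regulators known to act on channel genes, such as the repressor Rest and DNA methyltransferases, 9 were tested and 0 were called by edgeR in the averaged comparison. Dnmt1, the maintenance DNA methyltransferase, rose by 2.60 ± 0.68 after injury at 12 months (edgeR, adjusted p = 0.0489), the 1 of 9 called there, against 2.99% of all genes. Dnmt3a, a de novo methyltransferase, and Ehmt1, a histone methyltransferase, fell by 2.11 ± 0.60 and 1.70 ± 0.45 on the log2 scale between intact 8 and 12 months (edgeR, adjusted p = 0.0446 and 0.0338), the 2 of 9 called there, against 6.69% of all genes. These 3 calls were lost in 13, 14 and 10 of 18 refits without 1 library. The Dnmt1 call was kept without any intact 12-month library or the intact 8-month replicates 1 and 3 (changes of 1.91 to 5.35). The Dnmt3a call was kept without the intact 12-month replicates 2 and 3, the intact 8-month replicate 1 or the injured 8-month replicate 1 (changes of -3.36 to -1.36). The Ehmt1 call was kept without any intact 1-month library, the intact 12-month replicates 1 and 2, the intact 8-month replicates 1 and 3 or the injured 8-month replicate 1 (changes of -2.36 to -1.31).

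In single neurons 91 of the 95 members had a count in at least 1 of 69 cells. The order of levels was close to that of the low-input libraries, and 9 of the 10 highest members were shared. Kcnab2 was highest at 161 CPM per kb over the pooled cells, in 63 of 69 cells (91.3%), followed by Kcna1 at 91.3 in 59 cells and Kcnd1 at 45.1 in 61 cells. Kcnip4, Kcnip3 and Kcnip2 were at 43.4, 37.3 and 37.04 CPM per kb. The cells of a group count as 1 sample because no animal is named, so there is no test between groups. Depth differed: 8 of 18 intact and 15 of 21 injured cells at 1 month, and 8 of 8 and 15 of 22 at 1 year, had at least 500000 counts outside the dominant feature. Intervals below are 95% and cover counting error only.

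Of the members called in low-input libraries, Kcnq3 had the higher pooled level in injured cells at both ages. At 1 month injured cells had 51.9 CPM and intact cells 34.4 CPM, a ratio of 1.51 (1.41 to 1.61), and at 1 year at 36.2 and 29.2 CPM, a ratio of 1.24 (1.17 to 1.31). It was detected in 13 of 21 injured and 8 of 18 intact cells at 1 month, and in 13 of 22 and 7 of 8 cells at 1 year. After thinning cells to 500000 counts it was found in 12 of 15 injured and 4 of 8 intact cells at 1 month and in 10 of 15 and 7 of 8 at 1 year. The shares of cells thus did not follow the pooled level at 1 year.

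Kcnk16 reached 5.61 CPM in injured cells at 1 month, against 0.25 CPM in intact cells, a ratio of 22.6 (11.8 to 50.01). It had counts in 7 of 21 injured cells (33.3%, exact interval 14.6 to 56.97%) and 1 of 18 intact cells (5.56%, 0.14 to 27.3%), and 1 injured cell supplied 57.2% of the injured counts. At 1 year it was in 2 of 22 injured cells at a pooled 0.087 CPM and in 0 of 8 intact cells, where 3 counts would be 0.053 CPM, so it was barely detected at that age. Kcnh7 reached 83.5 CPM in injured cells at 1 month, against 206 CPM in intact cells, a ratio of 0.41 (0.39 to 0.42), and at 203 and 201 CPM at 1 year, a ratio of 1.01 (0.98 to 1.03). The lower level in injured cells was therefore seen at 1 month and not at 1 year, without replicates to test it. Kcng2 had ratios of 0.60 (0.50 to 0.70) and 0.87 (0.75 to 1.01) and Kcna6 of 0.46 (0.43 to 0.48) and 1.18 (1.14 to 1.23) at 1 month and 1 year. Pooled intact cells had 95.4 CPM of Kcna6 at 1 month and 69.7 CPM at 1 year. As means over intact cells of at least 500000 counts the levels were 68.3 and 75.1 CPM. The Kcna6 fall between intact low-input libraries at 1 and 12 months was thus smaller or absent in cells, without replicates to test it. No cells were measured at 8 months, so the fall from 8 to 12 months has no counterpart in cells.

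Among the abundant members, Kcna2 reached 125 CPM in injured cells at 1 month, against 316 CPM in intact cells, a ratio of 0.39 (0.38 to 0.41). At 1 year it was at 481 and 559 CPM, a ratio of 0.86 (0.85 to 0.87). Kcna1 had ratios of 0.73 (0.71 to 0.76) and 1.25 (1.23 to 1.27), and Kcnab2 of 0.53 (0.53 to 0.54) and 0.73 (0.72 to 0.74). Kcnab2 was lower in injured cells at both ages, and Kcnip4 was higher, with ratios of 2.33 and 2.41. Kcnab1 was also higher, with ratios of 1.74 and 3.04. In the low-input libraries both Kcnip4 and Kcnab1 went the other way. There Kcnip4 had medians of 42.6 CPM in intact and 30.9 CPM in injured neurons, and Kcnab1 of 82.3 and 46.3 CPM. The low-input groups overlapped for both genes, and neither was called. Kcnc1, a fast-firing channel subunit picked out after its values were seen, had ratios of 0.14 (0.13 to 0.15) and 0.24 (0.23 to 0.25), and 1 cell held 63.6% of its intact counts at 1 month and 80.6% at 1 year. As a mean over cells of at least 500000 counts the Kcnc1 ratio at 1 month was 0.51. Kcnj10 went the other way from the low-input libraries at 1 month, with 0.097 CPM in injured cells and 6.66 CPM in intact ones. It had counts in 1 of 21 and 2 of 18 cells, and 1 intact cell held 95.5% of the intact counts. At 1 year injured cells had 19.9 CPM and intact cells 7.46 CPM.

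**Figure D4:**
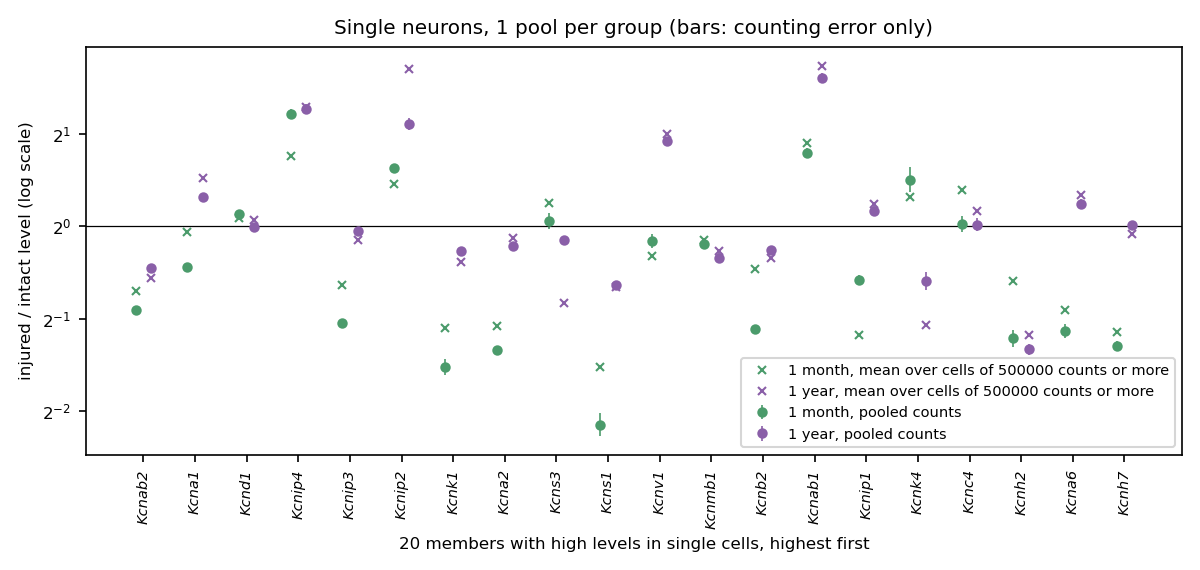
Ratio of the injured to the intact level (log axis) in single neurons for 20 members with high levels, at 1 month (green) and 1 year (purple). Dots are ratios of pooled CPM with 95% counting intervals and crosses are ratios of mean CPM over cells of at least 500000 counts; Kcns1 and Kcna2 lie below 1 at both ages, and Kcnip4 and Kcnab1 above 1.

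Neurons of the ganglion differ in size and conduction speed, and Nefh, the heavy neurofilament chain, marks large myelinated neurons. Across the 23 cells at 1 month with at least 500000 counts (8 intact and 15 injured), Nefh ranged from 72.3 to 7212 CPM. Among the 55 members found in at least 25% of these cells, the level of Kcna1 followed Nefh most closely, with a Spearman correlation of 0.81 (0.88 in the 8 intact and 0.81 in the 15 injured cells). Further members with high values were Kcnh2 at 0.70, Kcnab2 at 0.67 and Kcnq3 at 0.61. Kcna2 was at 0.95 in intact cells, above Kcna1 there, and at 0.20 in injured cells. The lowest values belonged to Kcnc2 at -0.71, Kcnmb1 at -0.54, Kcng3 at -0.52 and Kcnip4 at -0.44. These are descriptions: cells of 1 group may share an animal, depth varies between them, and both genes of a pair are measured in the same library.

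**Figure D5:**
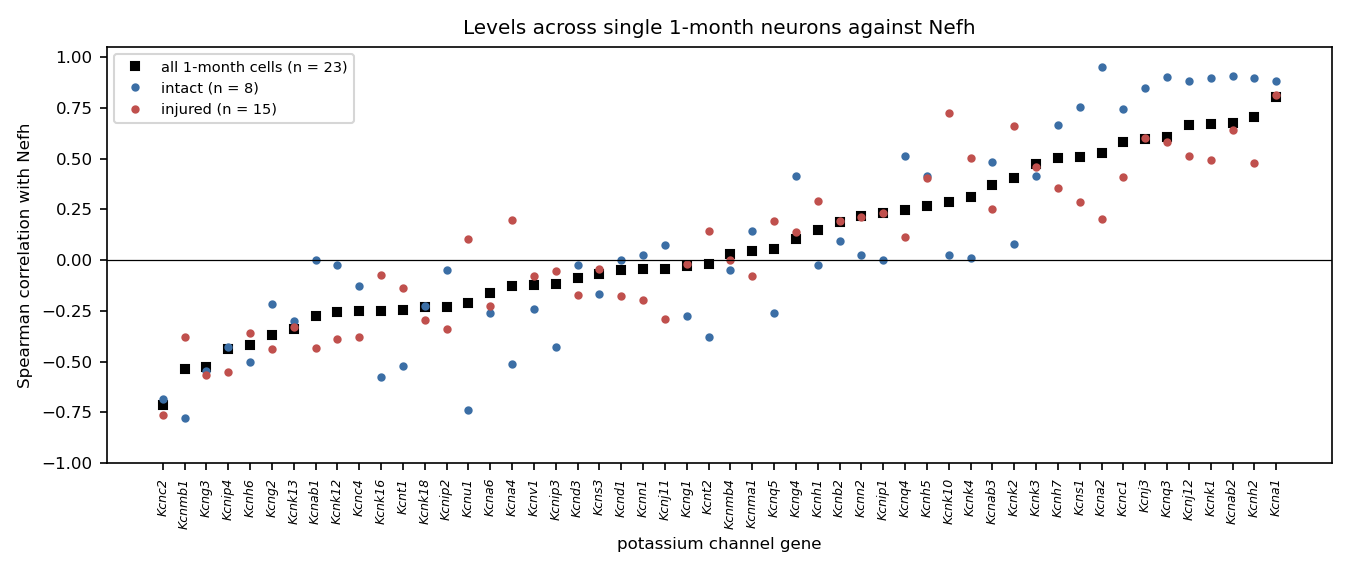
Spearman correlation of each member's CPM with that of Nefh across single neurons at 1 month, for 52 of the members found in at least 25% of the 23 cells; black squares use all 23 cells, blue dots the 8 intact and red dots the 15 injured cells. Kcna1 is highest and Kcnc2 lowest over all 23 cells and in injured cells. In intact cells Kcna2 lies above Kcna1 and Kcnmb1 below Kcnc2, and Kcna2 is lower in injured cells.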

How the data were processed

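RNA samples were analysed as 18 low-input libraries and 69 single cells, grouped by the labels' condition, age and library type. The 94 methylation samples were not analysed here. The series lists 136 RNA samples, and samples that share a name have 1 column of counts. At each age this held for intact replicates 2 and 3 and for injured replicate 1 of the low-input libraries, so it was uneven between conditions. Many single cells shared a column in this way too. The deposited table holds raw counts per gene. Per the file headers, the authors counted read pairs with featureCounts 1.5.2 over GENCODE vM16 exons (GRCm38) plus ERCC spike-ins, summed by gene name, unstranded, with unique reads only. Counts of genes that overlap on either strand are therefore uncertain. The submitters' processing notes also name Trim Galore, STAR, Bismark and mm10. The deposited exon length per gene, in bp, was used for CPM per kb. 1 of 69 cells had no counts.

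Low-input counts were fitted with edgeR 4.0.16 (R 4.3.3): filterByExpr, TMM, robust quasi-likelihood, 6 group means over 18 libraries, 14212 genes, 12 residual degrees of freedom, common biological coefficient of variation 0.543. SE is the log2 change over the square root of F. Tests are two-sided, with Benjamini-Hochberg adjustment over all genes and calls at 0.05. The fit was tried on simulated data for the averaged injury comparison alone, so the other comparisons were not covered. Apart from random spread, the simulated libraries differed only in depth and in changes put in for injury. Fitted log2 changes carry a prior count and are no bounds for genes with few counts. Alternatives were RLE scaling, no filter, DESeq2 1.42.0, a replicate block, ERCC scaling, a covariate for the dominant feature, each library left out, another single-cell denominator and, added after seeing the data, a mean over cells. Single-cell counts were pooled per group without the dominant feature; a floor is 3 counts. Exact 95% Poisson and Clopper-Pearson intervals were used (scipy 1.17.1).

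Genes named were those called in any contrast, the 10 highest by CPM per kb, the highest of each subfamily and an excitability list; results for a few of them are not reported here. Members, lists and rules were chosen with earlier results of these data known. Libraries carry numbers 1 to 3 in both conditions. Deviations of same-numbered libraries from group means correlated over 3528 genes by 0.086, 0.31 and 0.17 at the first age (1 month), by -0.43, -0.21 and -0.049 at 8 months and by -0.13, -0.046 and 0.086 at 12 months. At no age were all above 0.1, so the numbers were not taken as pairs. Names of intact low-input libraries carry the letter l and those of injured ones r, which the labels do not explain. This check cannot exclude that same-numbered libraries share a mouse.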

Additional observations from a re-analysis of the deposited data

How the results depend on the processing

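The number of potassium channel genes called depended on the settings, as did the share of all genes called, given after each count. Without the expression filter 91 members and 28520 genes were tested, otherwise 68 and 14212. Averaged over ages 4 were called (6.18% of all genes), against 25 without the filter (10 higher, 15 lower; 27.5% of members, 6.04% of all genes), 7 with DESeq2 (10.9%), 58 with ERCC scaling (all higher; 85.3% of members, 94.9% of all genes), 1 with the replicate block (Kcnq3; 2.31%), 0 with the covariate for the dominant feature (0.0774%) and 2 to 7 with 1 library left out. For injury at 1 month 0 were called (0.232%), against 3 without the filter (0.968%), 1 with DESeq2 (0.865%) and 0 to 0 with 1 library left out. At 8 months 2 were called (0.957%), against 13 without the filter (2.32%), 5 with ERCC scaling (4.44%), 1 with the replicate block (0.204%), 0 with the covariate (0.0352%) and 0 to 2 with 1 library left out. At 12 months 2 were called (2.99%), against 9 without the filter (3.29%), 4 with DESeq2 (8.71%), 64 with ERCC scaling (96.2%), 0 with the replicate block (0.408%), 0 with the covariate (0%) and 0 to 3 with 1 library left out. For the interaction 0 were called (0%), against 9 without the filter (1.35%) and 1 with DESeq2 (1.46%). For intact 12 against 1 month 1 was called (0.246%), against 9 without the filter (1.04%), 2 with DESeq2 (1.89%), 61 with ERCC scaling (all lower; 89.9%), 0 with the covariate (0.0211%) and 0 to 2 with 1 library left out. For intact 12 against 8 months 5 were called (6.69%), against 23 without the filter (6.08%), 15 with DESeq2 (15.6%), 13 with ERCC scaling (6.09%) and 2 to 10 with 1 library left out. For intact 8 against 1 month 1 was called (0.922%), against 14 without the filter (2.95%), 6 with DESeq2 (5.92%), 2 with ERCC scaling (2.62%), 0 with the replicate block (0.415%), 0 with the covariate (0.0422%) and 0 to 3 with 1 library left out. For injured 8 against 1 month, 12 against 1 month and 12 against 8 months 0 were called, against 6, 4 and 4 without the filter (0.820, 0.298 and 0.361% of all genes). The causes were not tested. Without the filter more members enter the test, and whether that accounts for the added calls was not tested.

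With ERCC scaling the averaged injury changes turned to 0.54 for Kcng2, 2.18 for Kcnh7, 0.38 for Kcnmb1, 2.28 for Kcnip3, 1.73 for Kcns1, 2.39 for Kcnb2, 2.60 for Kcnab2, 1.40 for Kcnk18, 2.60 for Kcna2, 2.72 for Kcnd1 and 2.40 for Dlg4; Kcnh7 in intact 12 against 8 months turned to -1.45. That scaling moved the median of all genes to 2.90 and -2.17 in these comparisons, and relative to it each of these genes lay on the same side of 0 as without it. With the covariate the averaged change turned to 0.067 for Kcnip3, 0.048 for Kcnb2 and 0.56 for Kcnd1. That of Kcna1 lay between -0.019 and 0.45 with 1 library left out. In single cells the Kcnk12 ratio at 1 month turned to 1.16 as a mean over cells, the Kcnh7 ratio at 1 year to 0.96 with all counts as denominator and 0.95 as a mean over cells, and the Kcnc4 ratio at 1 year to 0.97 with all counts as denominator. Members below about 1 CPM, such as Kcnk16 in intact neurons, rest on few counts. In the library that stood apart 1 count is 1.81 CPM, so values of a few CPM there do as well.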
